A study of Arabidopsis thaliana with 12 samples.

Results

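ATC (Arabidopsis thaliana CENTRORADIALIS homologue, locus AT2G27550 on chromosome 2, measured by a single probe set) is the single gene described here, 1 of 22746 probe sets on the array once control probe sets are set aside. It was chosen by its measured signals in all 4 groups of the series, which differed, so its own levels are given as a description without a test. ATC was the only 1 of the 6 Arabidopsis genes of its family that the annotation used here named on the array.

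The family encodes phosphatidylethanolamine-binding proteins. FT, its best known member, moves from leaves to the shoot apex and promotes flowering there together with the bZIP protein FD and 14-3-3 proteins. TFL1 competes for the same partners, represses flowering and keeps the apex indeterminate. ATC is a close relative of TFL1 and is known in Arabidopsis as a floral repressor that acts away from the cells that make it. Its transcript has been described in the hypocotyl and the vasculature rather than in the apex itself.

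Transcript levels were measured on 12 arrays of total RNA from Arabidopsis thaliana Col-0 seedlings, with 3 arrays in each of 4 groups. Seedlings grew from seed on agar plates of half-strength MS medium at 21 °C in 24 h light. The labels give an age of 4 days and the series text 7 days. One group, mock SAM, was the dissected shoot apical meristem part of seedlings given the solvent DMSO (0.1% in the series text). Another, L-AOPP SAM, was the same part from seedlings on 50 µM L-AOPP (2-aminooxy-3-phenylpropionic acid), an inhibitor of auxin biosynthesis. The group L-AOPP with IAA SAM came from plates with 50 µM L-AOPP and 10 nM of the auxin indole-3-acetic acid (IAA). The remaining group, mock whole plant, was the undissected mock seedling. All groups were wild type, the DMSO content of the L-AOPP plates is not given in the sources used here, and no whole plants were treated with L-AOPP. Nothing in the labels says that replicates came from separate cultures, so any p-value measures the spread between these arrays, which may be technical.

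Signals are linear intensities on a common scale per array, with array medians from 166.45 to 193.55. Spearman correlations between arrays of the same group ran from 0.974 to 0.982. From 15.8% to 23.7% of probe sets on each array had a signal at or below 20, the floor used below for sizes on the log2 scale. The table has no detection calls, so a signal under the floor is not a statement that the transcript was absent. Mock SAM replicate 3 stood apart in its 25S rRNA control signal, 164 against 5170 to 10331 on the other 11 arrays. It is also the mock SAM array with the highest ATC signal, and a link between the rRNA and ATC signals was not tested.

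In mock SAM the ATC signal was 4.4 on replicate 1, 2.0 on replicate 2 and 21.7 on replicate 3, the array with the low rRNA signal. Only that array passed the floor, and without it the mean of the other two was 3.2. With L-AOPP the signals were 104.5, 119.6 and 120.9, so every L-AOPP array lay above every mock array, and the lowest of them was 4.82 times the highest mock value. The spread among L-AOPP arrays was small, at 7.93% of their mean.

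With IAA added to L-AOPP the signals were 3.9, 16.4 and 26.1. These overlapped the mock SAM range and again lay wholly under the L-AOPP range, whose lowest value was 4 times the highest value with IAA. In mock whole plants the signals were 480.8, 519.4 and 477.7, the highest of the 4 groups and 3.95 times or more above any L-AOPP array. The order of the groups was therefore whole plant, L-AOPP SAM, then mock SAM and L-AOPP with IAA SAM. The last pair overlapped, and 2 of 3 arrays in each were at or under the floor, where their levels cannot be told apart.

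**Figure D1:**
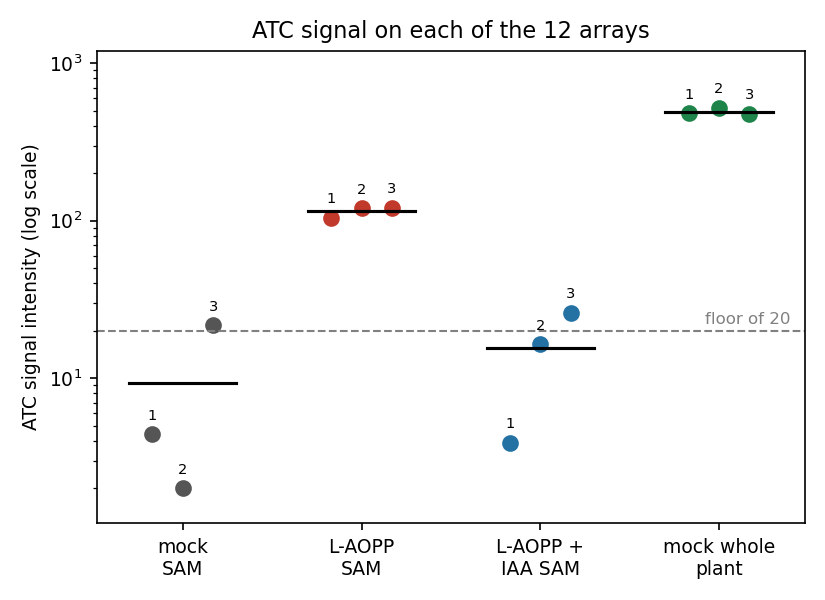
ATC signal intensity (log axis) on each array, by group; points are arrays marked with their replicate number, black lines are means of 3 arrays and the dashed line is the floor of 20. The 3 L-AOPP arrays lie between 104.5 and 120.9, above all mock SAM and all L-AOPP with IAA arrays and below the whole plants.

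As group means, the ATC signal was 9.37 ± 10.7 (SD, n = 3) in mock SAM (3.2 without replicate 3), 115 ± 9.12 under L-AOPP, 15.5 ± 11.1 where IAA was added, and 493 ± 23.2 in whole plants. The L-AOPP mean was 23.3% of the whole plant mean. The single L-AOPP arrays stood at 21.2%, 24.3% and 24.5% of it. The mock SAM arrays stood at 0.406% to 4.4% of it, the highest being replicate 3, and those with IAA at 0.792% to 5.3%, in both cases mostly under the floor. In bulk tissue, fewer cells that express a gene and less RNA per cell cannot be told apart.

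On the log2 scale with signals raised to the floor of 20, the difference between L-AOPP and mock SAM was 2.48 (SD of the arrays 0.12 and 0.07). Because 2 mock arrays were under the floor, its size depends on the floor chosen (1.52 with a floor of 40 and 4.32 with none). It was 2.52 without mock SAM replicate 3, where both remaining mock arrays were set to the floor. The difference between L-AOPP with IAA and L-AOPP alone was -2.39 (SD 0.22 and 0.12), and its size also depends on the floor. Between L-AOPP with IAA and mock SAM it was 0.09, less than the SD of 0.22 among the arrays with IAA. Raising low signals to the floor makes this difference small, and with no floor it was 1.04 (SD 1.43 and 1.75). Mock SAM differed from whole plants by -4.58 (-4.62 without replicate 3) and L-AOPP SAM from whole plants by -2.10, a pair of groups that differ in tissue as well as in treatment. The comparisons with L-AOPP and with mock SAM share arrays, so these differences are not independent of each other.

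For context, 10.6% of the 15922 probe sets tested had all L-AOPP arrays above all mock SAM arrays, 9.06% had all arrays with IAA below all L-AOPP arrays, and 26.2% had all mock SAM arrays below all whole plant arrays. ATC met each of these conditions, which are part of why it was chosen. It passed the filter on low values, which removed the 30% of probe sets with the lowest mean log2 signal, at a mean of 5.47 against a limit of 5.16. Over the 9 SAM arrays alone its mean was 4.31, under that limit, so it was kept through its level in whole plants.

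A gene that is under the floor in mock SAM and high in whole plants could be compared with others of that kind. The limits for this were chosen after the values were seen, so the counts describe the arrays and test nothing. Of all probe sets, 5133 had a mean mock SAM signal at or under 20. In 7 of them every L-AOPP array reached 40, in 2 every array reached 60, and in 1, ATC, every array reached 80 and also 100. When mock SAM replicate 3 was left out of the choice, 4922 probe sets were under the floor and ATC was again the only 1 at 100 or more.

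The genes that came next are named for these values. First among them was a probe set without a gene name here, with a lowest L-AOPP signal of 79.1. It had means of 14.3 ± 8.02 (SD, n = 3) in mock SAM, 106 ± 35.8 with L-AOPP, 38.6 ± 13.2 with IAA and 87.7 ± 16.6 in whole plants. Its whole plant mean lay below its L-AOPP mean, within the spread of the arrays, where ATC was far higher in whole plants. It was followed by nad1, a mitochondrial gene of the respiratory chain, at a lowest L-AOPP signal of 51.1. It had 18.8 ± 14.5 in mock SAM, 68 ± 27.8 with L-AOPP, 40.6 ± 14.3 with IAA and 41.7 ± 4.3 in whole plants. AT5G55450 came after it at a lowest L-AOPP signal of 50.8, and its means were ordered like those of ATC, with 12.4 ± 6.2 in mock SAM, 58.8 ± 6.95 under L-AOPP, 22.1 ± 19.1 where IAA was added and 95.8 ± 26.5 in whole plants.

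Of the 5133 probe sets, 270 also had a signal of 100 or more on every whole plant array. In the 269 other than ATC the median of the mean signals was 11.0 in mock SAM, 12.7 under L-AOPP and 10.7 where IAA was added. The mean L-AOPP signal stayed at or under 20 in 198 of them, and in 2 every L-AOPP array reached 40. The median of the L-AOPP mean as a share of the whole plant mean was 4.58%, where ATC had 23.3%. Several of the others lay above ATC by this share, the highest at 29.7%. With a limit of 400 in whole plants, which ATC also met, 70 probe sets were left. Outside ATC the highest share was then 8.2% and the median 1.1%. In 46 of these 69 others the mean L-AOPP signal was at or under 20. A higher limit in whole plants thus lowers their share by itself.

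**Figure D2:**
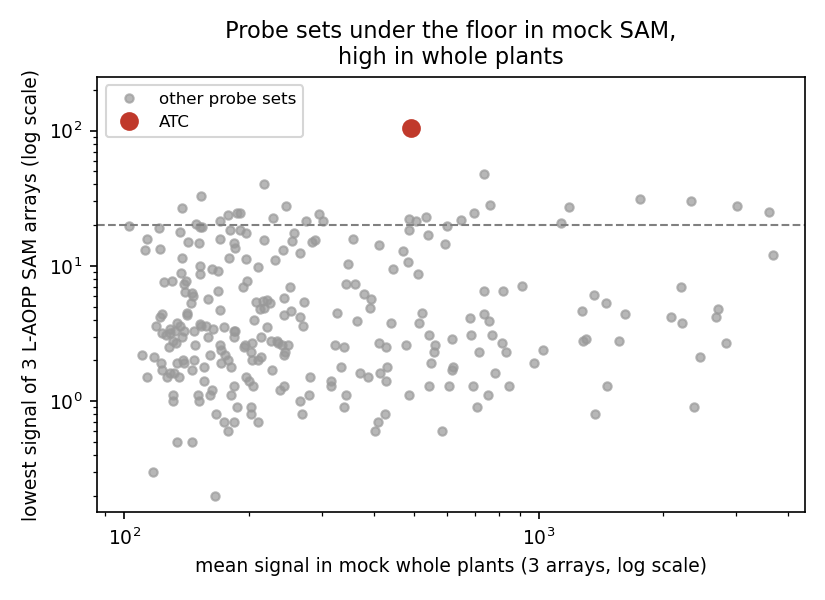
Lowest signal of the 3 L-AOPP SAM arrays against the mean signal in mock whole plants (both log axes) for the 270 probe sets with a mock SAM mean at or under 20 and at least 100 on every whole plant array; the dashed line is the floor of 20. ATC lies at 104.5 and the highest of the others at 48.2.

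The make-up of the dissected part was examined through marker genes beside ATC. Of 14 meristem and boundary markers 3 were named on the array by the annotation used here. All 3 were higher in mock SAM than in whole plants. In that comparison 42.6% of all probe sets were called higher and 25% lower by limma at an adjusted p under 0.05. CLV3, the stem cell signal peptide, was higher by 3.24 ± 0.70 on the log2 scale (SE), or 2.31 with the floor. The call was lost with the GAPDH ratio in the model (2.07 ± 1.47, limma adjusted p 0.281). That ratio separates mock SAM from whole plants, which widens the SE. PHV, a class III homeodomain-leucine zipper gene, was higher by 2.2 ± 0.11. LAS, which acts in axil and boundary formation, was higher by 1.78 ± 0.25. Over all probe sets the median log2 difference of this comparison was 0.21, and 0.07 after median centring.

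These meristem markers were lower on the arrays where ATC was higher. CLV3 had 186.4, 101.7 and 140.2 in mock SAM, and 68.3, 81.5 and 72.3 under L-AOPP. LAS had 153.6, 139.6 and 132.9 against 104.3, 67.9 and 130.1, and PHV had 1519.8, 1169.4 and 1276.7 against 1084.1, 1122.6 and 1102.4. In all 3 the L-AOPP arrays lay below every mock array, as they did for 12.3% of all probe sets. Their summed signal ran from 1411 to 1860 in mock SAM, 1257 to 1305 under L-AOPP, 1348 to 1624 where IAA was added and 312 to 376 in whole plants. By limma 0 of the 3 were called between L-AOPP and mock SAM, against 2.56% of all probe sets, so 0 of 3 is near the background. The log2 differences were -0.91 ± 0.70 (SE) for CLV3, -0.54 ± 0.25 for LAS and -0.25 ± 0.11 for PHV (limma adjusted p 0.559, 0.292 and 0.24). The part of a smaller share of meristem in the ATC values was not tested.

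Genes of photosynthesis also had signal in the dissected part, though a share of signal is not a share of tissue. Of 8 green leaf and cotyledon markers 4 were named on the array, the photosynthesis genes RCA, LHCB4.1, PRK and SBPASE. Their summed signal ran from 35082 to 37350 in mock SAM and from 84627 to 96495 in whole plants. It ran from 33818 to 35172 under L-AOPP and from 32445 to 36491 where IAA was added. Against mock SAM, 0 of the 4 were called with L-AOPP in either direction, with LHCB4.1 at -0.08 ± 0.07 (SE) and SBPASE at 0.09 ± 0.08. By limma 2.56% of all probe sets were called in that comparison, 408 of 15922, and 2675 had an unadjusted p under 0.05.

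Of 14 root markers 3 were named on the array by the annotation used here. The summed signal, almost all of it from the beta-glucosidase gene PYK10, ran from 14507 to 14743 in mock SAM, 14142 to 15828 with L-AOPP, 15953 to 16951 with IAA and 22527 to 25379 in whole plants. The root hair expansin EXPA7 was near or under the floor in all SAM groups, at 3.6 to 19.6 in mock SAM, 4.3 to 18.4 under L-AOPP and 8.2 to 20.4 where IAA was added, against 197.9 to 286.8 in whole plants. EXPA18, of the same kind, differed by -0.55 ± 0.40 (SE) between L-AOPP and mock SAM, and PYK10 by 0.05 ± 0.07. Both missed the threshold (limma adjusted p 0.528 and 0.753). EXPA18 also missed it with IAA against L-AOPP (1.00 ± 0.40, adjusted p 0.349). All mock SAM and L-AOPP values of EXPA7 were under the floor, so their overlap does not show whether root content differed. The part of root tissue in the ATC values was not tested. ATC has been described in the vasculature and the hypocotyl. None of the 16 vascular markers was named on the array by the annotation used here, and no hypocotyl markers were listed. A change in the share of either tissue was therefore not tested.

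RNA quality differed between the groups. The GAPDH control ratio, taken as log2 of its 3' over its 5' signal, is higher where RNA is more degraded or copied less far. It was 1.85, 1.39 and 2.1 in mock SAM, and 1.39, 1.49 and 1.63 under L-AOPP. With IAA it was 1.24, 1.27 and 1.36, and in whole plants 0.942 to 1.01. All SAM arrays thus lay above all whole plant arrays, and all arrays with IAA lay below the mock SAM and L-AOPP arrays, whose ranges overlapped. Where the ratio separates the groups compared, a fit with it as a covariate cannot tell RNA quality from group. A call lost in such a fit therefore cannot be put down to RNA quality. The part of RNA quality in the ATC values was not tested.

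The other genes of flowering were taken from 4 lists: partners and carriers of the FT and TFL1 proteins, genes of floral promotion and identity, floral repressors, and photoperiod and light input. Of their 65 genes 7 were named on the array and 6 passed the filter on low values. AGL42, a MADS-box gene, did not pass. Its signals lay between 1.0 and 18.8 in the SAM groups and between 18.2 and 24.1 in whole plants.

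Of the 6 tested flowering genes 0 were called between L-AOPP and mock SAM by limma, against 2.56% of all probe sets, and 1 had an unadjusted p under 0.05. Their median log2 difference was -0.22, and -0.01 over all probe sets tested. When IAA was added to L-AOPP 0 of 6 were called, against 0.86% of all probe sets (137 called, 1710 with an unadjusted p under 0.05). The median was 0.16. For L-AOPP with IAA against mock SAM it was 0 of 6, against 3.04% (484 called, 2865 with an unadjusted p under 0.05), with a median of -0.11.

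UFO, an F-box gene that acts with LFY in flower formation, had the smallest p of the 6 and ran opposite to ATC. Its signals were 161, 123.7 and 149.8 in mock SAM and 94.1, 71.9 and 84.3 with L-AOPP. With IAA they were 113.8, 162.8 and 158.6, and in whole plants 29.3, 32.6 and 35. The L-AOPP arrays lay below all mock SAM arrays (true of 12.3% of probe sets) and below all arrays with IAA (true of 9.36%). The log2 difference of L-AOPP against mock was -0.80 ± 0.22 (SE) with a limma adjusted p of 0.0688, which misses the threshold, and 0.0495 with a pseudocount of 20. IAA added to L-AOPP gave 0.79 ± 0.22 (adjusted p 0.132).

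FD, the bZIP partner through which FT and TFL1 act, had signals of 74.2, 66.7 and 47.2 in mock SAM, 51.6, 44.2 and 37.2 under L-AOPP, 33.5, 56.6 and 87.6 where IAA was added, and 39.8, 39.5 and 4.2 in whole plants. The SAM groups overlapped, with a log2 difference of -0.49 ± 0.67 (SE) for L-AOPP against mock (limma adjusted p 0.776) and 0.32 ± 0.67 for IAA added to L-AOPP (0.927). It was called higher in mock SAM than in whole plants (1.71 ± 0.67, adjusted p 0.0339), by 0.96 with the floor (0.0327), and the call rested on whole plant replicate 3. Without that array the difference was 0.64 and the adjusted p 0.188. Mock SAM replicates 1 and 2 were also needed for it (0.0901 and 0.0798 without them), and it was lost in 6 of the alternatives run in all.

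AGL24, a MADS-box promoter of flowering, ranged from 149.2 to 173.5 in mock SAM, 131.3 to 142 under L-AOPP and 123.7 to 164.4 where IAA was added. L-AOPP against mock gave -0.24 ± 0.57 (SE). In whole plants AGL24 had 15.5, 46.0 and 3.7, mostly under the floor. Its higher level in mock SAM (limma adjusted p 4.94e-05) was 2.63 on the log2 scale with the floor. With the GAPDH ratio in the model the difference was 3.08 with a wider SE of 1.23, and AGL24 was not called (adjusted p 0.0603). UFO was higher in mock SAM than in whole plants by 2.16 ± 0.22 (adjusted p 3.54e-07). ATC, at -4.58 with the floor, stood the other way.

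The floral repressors SMZ and SNZ, AP2-type transcription factors, had overlapping ranges across the SAM groups. SMZ ranged from 382 to 537.7 in mock SAM, 393.6 to 432.3 under L-AOPP and 388.8 to 545.4 where IAA was added, with -0.21 ± 0.15 (SE) for L-AOPP against mock (limma adjusted p 0.509). SNZ ranged from 133 to 211, 153 to 221.5 and 150.2 to 262, with 0.21 ± 0.22 (adjusted p 0.689). SMZ was higher in mock SAM than in whole plants by 0.34 ± 0.15 (adjusted p 0.0484). That call was lost in 10 of the alternatives, among them quantile normalization (0.302), median centring (0.213), and the fits that left out mock SAM replicate 1 (0.189) or 2 (0.145) or whole plant replicate 1 (0.151) or 2 (0.108). GI, a clock-linked gene of photoperiod input, ranged from 215.1 to 373.6, 254.1 to 291.5, 196 to 283.1 and, in whole plants, 301.9 to 382.1. It was called in 0 of the 4 comparisons.

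In all, 4 of the 6 tested flowering genes were called higher in mock SAM than in whole plants and 0 lower, against 42.6% and 25% of all probe sets. Those shares show how common such a call was in this comparison.

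**Figure D3:**
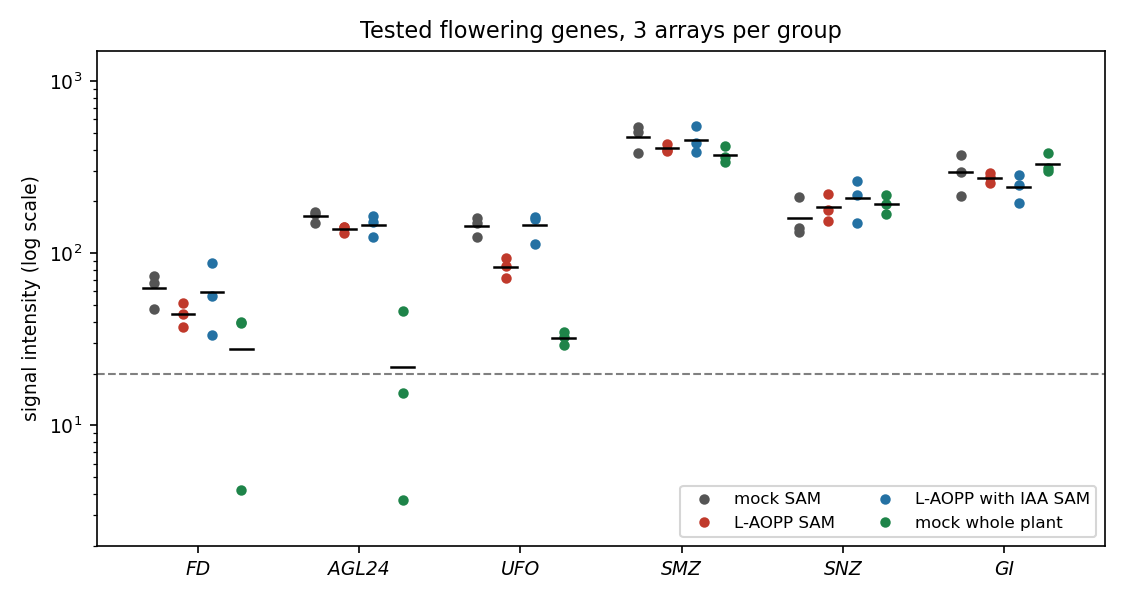
Signal intensity (log axis) of the 6 tested flowering genes, with a point for each of 3 arrays per group, black lines for the means and a dashed line at the floor of 20. UFO lies lower on the 3 L-AOPP arrays than on the mock SAM and IAA arrays, while SMZ, SNZ, FD and GI overlap between the SAM groups.

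Genes of auxin response were read beside ATC since L-AOPP is an inhibitor of auxin synthesis. Of 13 listed genes 7 were named on the array and 6 passed the filter. Of these 6 tested members 1 was called lower with L-AOPP and 0 higher (1.34% and 1.22% of all probe sets), with a list median of -0.37. HAT2, an auxin-inducible homeodomain-leucine zipper gene, fell from 676.5, 525.7 and 714.2 in mock SAM to 378.2, 429.1 and 328.2 (log2 -0.75 ± 0.14 SE, limma adjusted p 0.0115). Leaving out L-AOPP replicate 1 (0.0516) or 3 (0.0527) or mock SAM replicate 1 (0.0617) or 3 (0.0513), or adding the GAPDH ratio to the model (0.126), took it past the threshold. In the group with added IAA it had 486.7, 376.1 and 423.2, all below mock SAM (true of 11% of probe sets). It was the 1 auxin response gene called lower there (-0.57 ± 0.14 SE, limma adjusted p 0.0387), with 0 called higher, against 1.82% and 1.22% of all probe sets. That call was lost in 8 of the alternatives, among them those without replicate 2 (0.135) or 3 (0.0872) of the IAA group, without mock SAM replicate 1 (0.11) or 3 (0.146), or with the GAPDH ratio in the model (0.804). Between L-AOPP with IAA and L-AOPP alone HAT2 differed by 0.18 ± 0.14 (adjusted p 0.72), and 0 of the 6 were called, against 0.276% of all probe sets higher and 0.584% lower. With IAA added the ATC signals overlapped mock SAM, whereas those of HAT2 did not. The other tested members, IAA29, IAA30, GH3.3, GH3.5 and GH3.17, did overlap mock SAM in the IAA group. GH3.17 differed by 0.32 ± 0.12 (SE) when IAA was added to L-AOPP (limma adjusted p 0.332).

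The genes on either side of ATC on chromosome 2 were taken in the gene order of RefSeq. The 5 nearest named on the array before it and the 5 after it lay 2 to 11 genes away, and 7 of the 10 passed the filter. By limma 0 of the 7 were called in any of the 3 comparisons between SAM groups, where 2.56%, 0.86% and 3.04% of all probe sets were called, so 0 of 7 is near the background. Their median log2 difference was 0.03 between L-AOPP and mock SAM. PGY1, which encodes a ribosomal protein and lies 3 genes before ATC, had means of 11094 ± 1383 (SD, n = 3) in mock SAM and 10938 ± 495 under L-AOPP. AT2G27570, 2 genes after ATC and the nearest one named on the array, was under the floor on average in every group, with 8.53 ± 9.16 in mock SAM, 8.4 ± 8.15 with L-AOPP and 1.93 ± 1.04 in whole plants. AT2G27580, 3 genes after ATC, had 270 ± 23 in mock SAM, 301 ± 51.9 with L-AOPP and 411 ± 55.4 in whole plants. Between mock SAM and whole plants 3 of the 7 were called higher and 2 lower, near the 42.6% and 25% of all probe sets, and 2 and 1 with the GAPDH ratio in the model. The lower pair, in the direction of ATC, was AT2G27500 (log2 -1.01 ± 0.14 SE) and AT2G27580 (-0.60 ± 0.14).

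The genes whose pattern was most like that of ATC were found by Pearson correlation of log2 signals with the floor of 20, among the 8774 other tested probe sets with a single gene. The points share the 4 group levels, so a high r mostly says that the group means are ordered alike. Over all 12 arrays the most alike was UGT87A2, a glycosyltransferase gene that acts on flowering time in Arabidopsis, with r = 0.966. Its means were 100 ± 18 (SD, n = 3) in mock SAM, 189 ± 14.7 with L-AOPP, 107 ± 19.2 with IAA and 416 ± 13.1 in whole plants. The others of the leading 10, with r down to 0.941, were AT5G54860, AT1G12845, AT4G01870, AT1G50450, AT1G06640, AT2G23120, AT3G47650, AT5G47050 and AT3G15570.

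These 10 followed the direction of ATC at much smaller sizes. Their L-AOPP mean was 1.12 to 1.95 times the mock SAM mean, where the L-AOPP mean of ATC was 5.75 times the floor, and their whole plant mean was 1.35 to 10.3 times the mock SAM mean. AT3G15570 had the widest range, with 60.6 ± 11.4 in mock SAM, 118 ± 21.6 with L-AOPP, 59.5 ± 18.8 with IAA and 626 ± 19.8 in whole plants. UFO, named here through its list, stood near the other end of the order, with r = -0.963.

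Over the 9 SAM arrays alone the most alike was AT2G23540 (r = 0.976), at 16.2 ± 0.7 in mock SAM, 32.2 ± 3.72 under L-AOPP and 6 ± 4.81 where IAA was added, so partly under the floor. Next came AT5G54860, AT2G25670, AT1G77200, AT1G72550, AT1G06100, AT2G34200, AT2G42450, AT1G06640 and AT1G79080, with r down to 0.909. AT1G06100 went from 115 ± 9.59 in mock SAM to 233 ± 7.41 under L-AOPP, or 2.02 times, the largest ratio of these 10, and had 138 ± 10.2 where IAA was added. AT5G54860 and AT1G06640 were the 2 genes in both sets. The choice of measure decided the second set, since 0 of its 10 genes were among the leading 10 by Spearman correlation (3 of 10 over all 12 arrays).

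The whole plant arrays entered that second choice only through the filter on low values. AT2G23540 passed it through its whole plant mean of 762 ± 130 (SD), since its mean log2 signal over the SAM arrays was 3.77, so its lower level in mock SAM was fixed by the choice. The other 9 genes would have passed on the SAM arrays alone. All 9 were called between mock SAM and whole plants by limma, with adjusted p-values up to 0.00293, in a comparison where 67.6% of all probe sets were called and whose mock SAM arrays were among those used for the choice. Lower in mock SAM, as ATC was, were AT1G06640 (log2 -1.39 ± 0.10 SE) and AT5G54860 (-0.60 ± 0.12). The remaining 7 were higher in mock SAM, from 0.56 ± 0.14 for AT1G79080 to 1.07 ± 0.27 for AT1G77200. With the GAPDH ratio in the model 2 of the 9 were called higher and 2 lower.

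**Figure D4:**
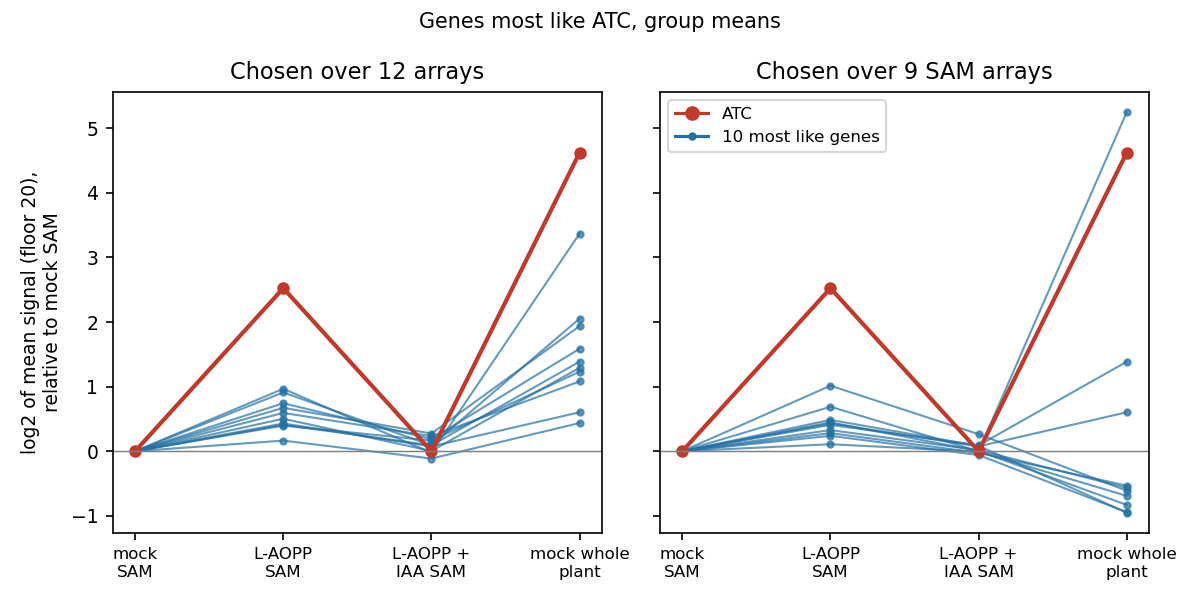
Log2 of the group mean signal (means under 20 set to 20) relative to mock SAM for ATC and for its 10 most like genes, chosen over 12 arrays (left) or over the 9 SAM arrays (right). ATC lies higher under L-AOPP than any of them, and on the right 7 genes lie below 0 and 3 above 0 in whole plants.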

How the data were processed

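Per the submitters' processing notes the authors used MAS5, with no version given, and the deposited table gives each probe set's intensity on a linear scale, already on a common scale per array (mean without the lowest and highest 2% of 500 on each). No detection calls were used here. The 64 control probe sets were set aside and the 30% of the other 22746 with the lowest mean log2 left out, so that 15922 were tested with limma 3.58.1 in R 4.3.3 (1 coefficient per group over 12 arrays, intensity trend, two-sided, Benjamini-Hochberg over all tested, called under 0.05), a script checked on simulated data. Genes came from the platform annotation, which can be old. It gave 1 gene for 13513 probe sets, several for 503 and none for 8730, and 13484 were matched to a locus in RefSeq's gene table. Of 136 listed genes 25 were named on the array and 22 passed the filter. ATC, the lists and the tests were chosen with earlier results of these data known. Named genes were the list members with the largest called differences (up to 4 a list and comparison, or the 2 smallest p-values), the 10 most like ATC and the 5 on either side of it. Alternatives were other floors, pseudocounts, normalizations, filters, variance models, a GAPDH covariate, a replicate block and leaving out each array. No sequence was available for ATC here. The number of arrays limits the precision.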

Additional observations from a re-analysis of the deposited data

How the results depend on the processing

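The size of the ATC differences depended on how low signals were treated. With a floor of 10, a floor of 40, no floor and a pseudocount of 20, L-AOPP against mock was 3.15, 1.52, 4.32 and 2.26, L-AOPP with IAA against L-AOPP was -2.82, -1.52, -3.27 and -1.98, and mock SAM against whole plants was -5.25, -3.62, -6.42 and -4.18. After median centring the last was -4.67. L-AOPP with IAA against mock was 0.33 with a floor of 10 and 1.04 with none, and L-AOPP against whole plants was -1.93 with the pseudocount. Leaving out single arrays gave 2.44 to 2.55, -2.52 to -2.33, -0.04 to 0.15, -4.62 to -4.54 and -2.14 to -2.03 for L-AOPP against mock, IAA added to L-AOPP, L-AOPP with IAA against mock, mock SAM against whole plants and L-AOPP against whole plants. Ranges that involve mock SAM or L-AOPP with IAA are narrow because signals under 20 were first raised to the floor. They do not show how stable the unfloored levels are. With no floor the SD on the log2 scale was 1.75 among mock SAM arrays and 1.43 among those with IAA.

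Same-numbered arrays deviated from their group means with correlations from -0.188 to 0.105. Differently numbered arrays were not compared in this way and the labels name no pairs, so whether the replicate numbers pair the arrays was not settled. With a replicate block the ATC differences are the same by construction (2.48, -2.39, 0.09, -4.58 and -2.10), and the SD of the differences between same-numbered arrays was 0.10, 0.18, 0.15, 0.12 and 0.11. Under the block 287, 100, 357 and 10648 probe sets were called for L-AOPP against mock, IAA added to L-AOPP, L-AOPP with IAA against mock and mock SAM against whole plants. The numbers without it were 408, 137, 484 and 10760. In the same order, the GAPDH ratio as a covariate gave 47, 70, 7 and 6256, and no intensity trend gave 122, 23 and 175 for the 3 comparisons between SAM groups. In all but L-AOPP against mock the GAPDH ratio did not overlap between the groups compared. Those GAPDH counts cannot separate RNA quality from group. A fit of only the 2 groups compared gave 134 for L-AOPP with IAA against mock. For IAA added to L-AOPP it gave 66, and leaving out the lowest 50% gave 85. Without single arrays the counts ran from 89 to 586, 28 to 213, 169 to 531 and 10093 to 10417. The block also ended the call of HAT2 in L-AOPP with IAA against mock (limma adjusted p 0.0604). The cause was not tested.

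Of 906 alternative values for the 58 named gene and comparison pairs of the lists, 853 kept direction and side of the threshold, 31 lost the call, 1 gained it and 21 changed sign, all 21 without a call. Many of these pairs were not called in the main fit and had no call to lose. The 853 therefore does not measure how stable the calls were. All 31 losses were in pairs of HAT2, FD, SMZ, AGL24 and CLV3. For L-AOPP with IAA against mock, quantile normalization gave UFO 0.0039 and median centring 0.0081. With the GAPDH covariate it was 0.20, AGL24 0.13, PHV 0.0054, CLV3 0.22 and EXPA18 -0.044. GI in mock SAM against whole plants was 0.00047 with it. Without single arrays the ranges that crossed 0 in L-AOPP with IAA against mock were -0.50 to 0.19 for FD, -0.12 to 0.16 for UFO, -0.21 to 0.054 for SMZ and -0.19 to 0.0030 for PHV. In IAA added to L-AOPP they were -0.013 to 0.68 for FD, -0.013 to 0.19 for AGL24 and -0.015 to 0.39 for SNZ. In L-AOPP against mock they were -0.28 to 0.11 for GI and -1.10 to 0.027 for EXPA18, and in mock SAM against whole plants -0.38 to 0.014 for GI. Of the 10 genes most like ATC over 12 arrays, 3 stayed with Spearman correlation and 6 with a floor of 40, and over the 9 SAM arrays 0 and 7.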
